A study of Homo sapiens with 4 samples.

Results

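The Polo-like kinases form a small family of serine/threonine kinases, of which PLK1, PLK2, PLK3 and PLK4 were examined here by their Ensembl gene IDs, 4 genes of the 60671 in the table. The cells were SK-N-BE(2), a human neuroblastoma (NB) line that carries amplified MYCN, and their RNA was sequenced in bulk. The shNC group carried a scrambled control short hairpin RNA and the shMETTL14 group a hairpin against METTL14, which works with METTL3 to write N6-methyladenosine (m6A) into mRNA, with 2 libraries in each group. The series text speaks of transfected cells, while the study's methods describe lentiviral hairpins and selection with puromycin, a treatment that both groups would share. The labels give neither the METTL14 hairpin that the sequenced cells carried nor the time of harvest, and they do not say whether the 2 libraries of a group came from separate cultures. The family was chosen by the fold change of PLK2 against those of PLK1 and PLK4 in this same comparison, so the members' fold changes are given as a description, without a test.

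All members share an amino-terminal kinase domain and carboxy-terminal polo boxes, which dock the kinase on its partners. PLK1 drives entry into mitosis, centrosome maturation, spindle assembly and cytokinesis, and its transcript peaks in G2 and mitosis. PLK4 is the kinase that starts the duplication of centrioles. PLK2 and PLK3 were first described as genes induced by serum and growth factors. They also respond to stress, and PLK2 acts in neurons, where it phosphorylates regulators of Ras and Rap at dendritic spines.

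Libraries held from 18925786 to 19886214 counts in genes. METTL14 itself had 753 and 754 counts under shNC but 303 and 321 under shMETTL14, so that 41.7% of its control level remained. The 10 markers of noradrenergic NB cells fixed for this check, HAND2 and DBH among them, were all above 3 counts in every library, with a summed level between 5534 and 5680 CPM (counts scaled to a common library size with TMM factors). Of these, 2 rose and 8 fell at an edgeR adjusted p under 0.05, where 52.5% of all genes tested were called, 27.2% higher and 25.3% lower. MYCN, among those that rose, had a mean of 2616 CPM under shNC and 3173 CPM under shMETTL14. It thus held much of the sum, and the near-equal sums do not show the 8 falls. The 10 markers of leukocytes, endothelium, epithelium, liver and Schwann cells summed to between 13.3 and 14.0 CPM in the shNC libraries and between 8.77 and 9.18 CPM in the shMETTL14 libraries, and 3 of the 5 that could be tested fell, against those 25.3%. KRT5, a keratin of basal epithelium, had 0 counts in every library. The part of these shifts in the results below was not tested, and in bulk RNA fewer cells of a type cannot be told apart from less RNA per cell.

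PLK2 was the member that differed most between the groups. PLK2 (ENSG00000145632) lies on the minus strand of chromosome 5, from 58453982 to 58460260 (GENCODE 29, GRCh38), and its longest coding transcript has 14 exons and codes for 685 residues. It had 118 and 104 counts in the shNC libraries. In the shMETTL14 libraries it had 928 and 906 counts. The groups were far apart, and both shMETTL14 libraries lay above both shNC libraries. The mean levels in CPM were 5.68 ± 0.346 (SD, n = 2) and 47.2 ± 0.226 (SD, n = 2), an 8.32-fold difference. The log2 fold change was 3.05 (SE 0.0966). Of the 16309 genes tested, 23 had a higher log2 fold change. The replicates differed by 8.62% in shNC and by 0.678% in shMETTL14, both less than the counting error of such a difference (SD 13.4% and 4.67%). No other annotated gene overlaps the exons of PLK2.

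PLK1, the mitotic member, moved the other way and by far less. PLK1 (ENSG00000166851) spans bases 23677656 to 23690367 of chromosome 16 on the plus strand, with 10 exons and 603 residues. It had 2985 and 2729 counts under shNC. Under shMETTL14 it had 2295 and 2280, both below both controls. The level went from 146 ± 5.12 to 118 ± 0.888 CPM (SD, n = 2 each), which left 80.6% of the control level. This is a log2 fold change of -0.31 (SE 0.0444). In the annotation PLK1 shares exon sequence on the other strand with ERN2 and with an antisense gene, which had at most 2 and 4 counts in any library. The strand setting of the counting is not given, so whether PLK1 reads in that sequence were counted is not known.

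PLK4, the centriole kinase, was higher after METTL14 knockdown and so did not follow PLK1. PLK4 (ENSG00000142731) spans bases 127880861 to 127899195 of chromosome 4 on the plus strand. Its longest coding transcript has 16 exons and codes for 970 residues, the longest protein of the family. It had 1342 and 1283 counts in the shNC libraries and 1721 and 1603 counts in the shMETTL14 libraries, and the groups did not overlap. The level went from 67.2 ± 0.232 to 85.6 ± 3.26 CPM (SD, n = 2 each), or 127% of the control, with a log2 fold change of 0.35 (SE 0.0510).

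PLK3, the other stress-induced member, was similar in the groups. PLK3 (ENSG00000173846) spans bases 44800225 to 44805990 of chromosome 1 on the plus strand, with 15 exons and 646 residues. It had 195 and 184 counts in the shNC libraries and 218 and 184 counts in the shMETTL14 libraries. The groups overlapped: shMETTL14 library 1 was the highest of the 4 and shMETTL14 library 2 the lowest in CPM. The mean level was 9.70 ± 0.123 CPM under shNC and 10.3 ± 1.11 CPM under shMETTL14 (SD, n = 2 each). The log2 fold change was 0.09 (SE 0.125), and it was -0.02 without shMETTL14 library 1. PLK3 shares exon sequence on the other strand with TCTEX1D4, which had 0 counts in every library. As for PLK1, whether PLK3 reads in the shared sequence were counted is not known.

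The groups thus did not overlap in 3 of the 4 members, 2 higher and 1 lower. Over all genes tested, the groups did not overlap in 75.5%. The median absolute log2 fold change over those genes was 0.30, so PLK1 (-0.31) and PLK4 (0.35) moved about as far as a typical gene. All 4 members passed the filter on low counts. PLK5, the remaining annotated gene of the family and not one of the 4 members, had 0 and 2 counts in the shNC libraries and 3 and 0 counts in the shMETTL14 libraries. It was too low to test.

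**Figure D1:**
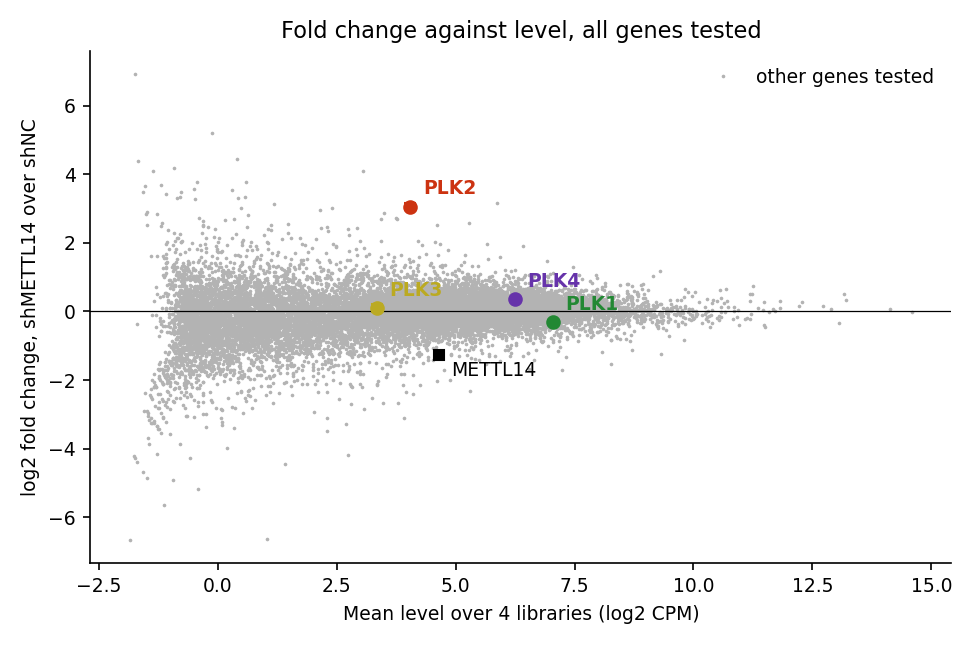
Log2 fold change of shMETTL14 over shNC (y axis) against the mean level over the 4 libraries (x axis, log2 CPM) for every gene tested. Coloured points are the Polo-like kinases with bars of 1 SE (smaller than the point where not seen), and the black square is METTL14. PLK2, at 3.05, lies above nearly all other genes, while PLK1 at -0.31, PLK3 at 0.09 and PLK4 at 0.35 lie among them.

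To place the members on 1 scale, CPM was divided by the length of the merged exons of each gene. In the shNC cells the order was PLK1 (30.7 ± 1.08 CPM per kilobase), PLK4 (14.99 ± 0.0518), PLK3 (2.79 ± 0.0355) and PLK2 (1.19 ± 0.0725; SD, n = 2 each). PLK2 was thus the lowest member in control cells, where 74.8% of the genes tested had a higher level per length. In the shMETTL14 cells the order was PLK1 (24.8 ± 0.187 CPM per kilobase), PLK4 (19.1 ± 0.726), PLK2 (9.91 ± 0.0475) and PLK3 (2.97 ± 0.320). PLK2 had passed PLK3, and 28.3% of the genes tested had a higher level per length than PLK2. In each group, the libraries of every member lay clear of those of its neighbour in the order. The order was the same per length of the longest coding transcript, a choice made after the data were seen, although PLK1 then stood further above PLK4 (65.6 against 17.5 CPM per kilobase in shNC).

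**Figure D2:**
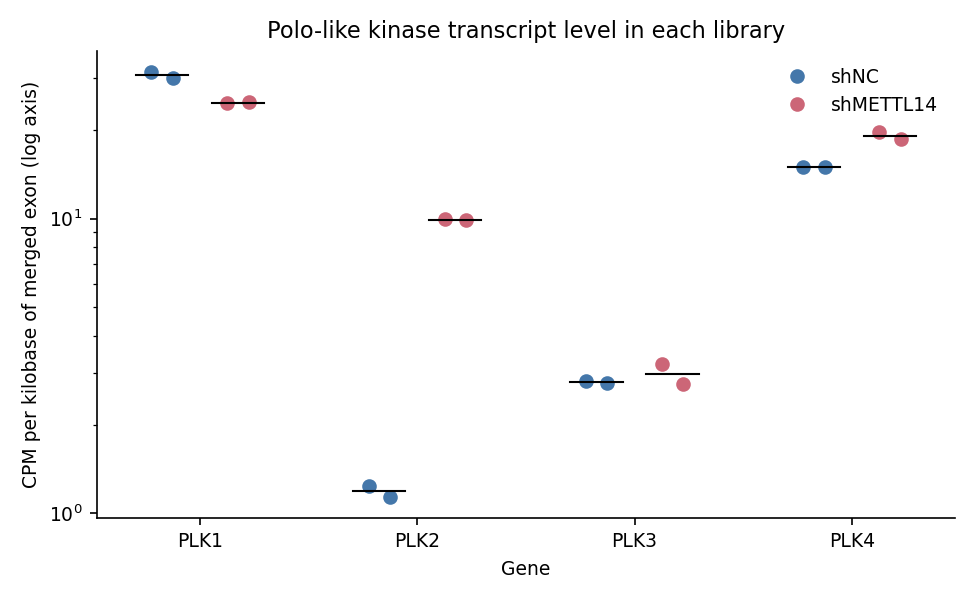
Level of each Polo-like kinase in each library, in CPM per kilobase of merged exon on a log axis; points are libraries and horizontal lines are means of 2. The PLK2 points move from near 1.19 to near 9.91, past both groups of PLK3, while PLK1 stays the highest member in both groups.

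The make-up of the family changed with these levels. PLK2 made up 2.46% and 2.33% of the summed level per length in the shNC libraries and 17.3% and 17.6% in the shMETTL14 libraries. The share of PLK1 was 62.3% and 61.4% in shNC and 42.9% and 44.4% in shMETTL14. PLK4 held 30.2% ± 0.647 and 33.7% ± 0.742 (SD, n = 2 each), and PLK3 held 5.61% ± 0.0683 and 5.24% ± 0.480. The summed level of the 4 genes was 49.7 ± 1.24 CPM per kilobase in shNC and 56.7 ± 0.907 in shMETTL14 (SD, n = 2 each). These values depend on the length chosen. Per length of the longest coding transcript, also a choice made after the data were seen, the PLK4 share was 19.7% ± 0.491 in shNC and 23.4% ± 0.651 in shMETTL14, and the summed level was 88.9 ± 2.53 and 95.3 ± 0.972 CPM per kilobase (SD, n = 2 each). The PLK2 share was 2.16% ± 0.0701 and 16.7% ± 0.0905 on that length.

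Ratios between members within a library do not depend on how libraries are scaled to each other. The PLK2 to PLK1 ratio, per length, was 0.0395 and 0.0380 in the shNC libraries and 0.404 and 0.397 in the shMETTL14 libraries. On the log2 scale it differed by 3.37 (SE 0.0293) between the groups. The PLK2 to PLK4 ratio was 0.0827 and 0.0762 in shNC and 0.507 and 0.531 in shMETTL14, a log2 difference of 2.71 (SE 0.0678). The SEs of ratios rest only on the spread between 2 libraries per group. Both PLK2 ratios have an SE below the 0.0966 of the PLK2 fold change in the fit, so these SEs understate the error. The PLK4 to PLK1 ratio, between the cell cycle members, went from 0.477 and 0.499 to 0.796 and 0.747, a log2 difference of 0.66 (SE 0.0566). The size of a ratio, unlike its log2 difference between the groups, depends on the length chosen: per longest coding transcript the PLK4 to PLK1 ratio was 0.261 and 0.273 in shNC and 0.435 and 0.408 in shMETTL14. In each of these 3 ratios the groups were separated by more than the spread between replicates. The PLK3 to PLK1 ratio differed least of the ratios to PLK1, by 0.40 on the log2 scale (SE 0.120).

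**Figure D3:**
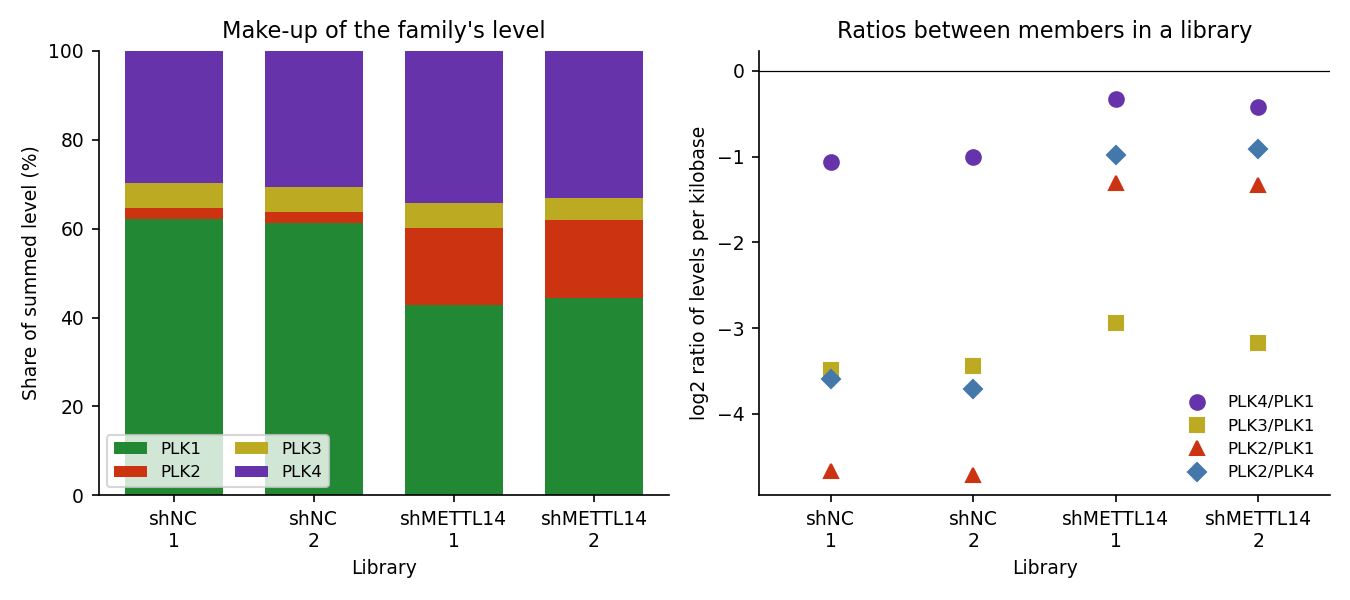
Left, share of each Polo-like kinase in the family's summed level per length (%), by library; right, log2 ratios of levels per kilobase between members in each library. PLK2 widens from near 2.40% to near 17.5% of the family, and the PLK2/PLK1 and PLK2/PLK4 ratios are higher in both shMETTL14 libraries than in both shNC libraries.

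Because METTL14 acts on RNA, the members' transcripts were searched for GGACT, a word that m6A methyltransferase favours (GGACU in RNA). PLK2 held 8 copies in its longest coding transcript of 2960 bases, or 2.70 per kilobase. PLK1 held 5 copies (2.25 per kilobase), PLK4 4 (1.04 per kilobase) and PLK3 1 (0.401 per kilobase). Over the 12832 coding genes tested that had such a transcript, the median was 0.939 per kilobase; 2.73% were denser than PLK2, 6.02% denser than PLK1, 43.7% denser than PLK4 and 84.3% denser than PLK3. Of the PLK2 copies, 5 were coding and 3 were in the 3′ UTR. The PLK1 transcript had 1 copy in its 3′ UTR, and PLK3 and PLK4 had none there. The 3′ UTR copies are shown as the places in which the 2 members with the densest transcripts differ from the others (GENCODE 29 transcripts, 5′ to 3′, the word in capitals, with the distance of its first base from the first base of the 3′ UTR).
PLK2, 24 bases on: atggaccctatgGGACTcctcttttccac
PLK2, 135 bases on: ctgtggcctgctGGACTggttggaaccag
PLK2, 309 bases on: atttcagccagaGGACTttggaactgtga
PLK1, 17 bases on: gccctcccctccGGACTggtgccctcctc
These matches are words in a sequence. Methylation at them was not analysed here.

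The promoters (RefSeq, GRCh38.p14, 250 bases before to 50 after each start) were searched on both strands for 6 kinds of element. There was 1 window each for PLK1, PLK2 and PLK3 and 3 for PLK4. PLK2 had a TATA box (TATAAA or TATATAA, found in 12.6% of 35116 promoters) from 30 bases before its start, and the core word of a cAMP response element (CRE; TGACGT, in 7.98%) from 77 bases before it. PLK1 had a cell cycle homology region (CHR; TTTGAA or TTCGAA, in 16.4%), the element through which many genes of G2 and mitosis are repressed earlier in the cycle, from 29 bases before its start, and a CCAAT box (CCAAT, in 34.6%) from 73 bases before it. PLK4 had a CRE core from 5 bases before its first start, a CHR word from 38 bases after it, and overlapping copies of the NRF1 core on opposite strands (GCATGCGC, in 3.05%) from 52 and 50 bases before it. Another of its windows held a CCAAT box. Copies of an E2F site (TTTCCCGC, TTTGGCGC, TTTCGCGC or TTTGCCGC, in 3.31%) were absent from all of these windows, and the PLK3 window held none of the 6 elements. The words that set PLK2 apart from PLK1 are printed with the related words of PLK4 (gene strand, 5′ to 3′, match in capitals).
PLK2 TATA box, chr5:58460098-58460127, minus strand: ccgcctccccgTATATAAgacttcgccgag
PLK2 CRE core, chr5:58460146-58460175, minus strand: gggcataggccgTGACGTgatgtcgcgtat
PLK1 CHR, chr16:23678848-23678877, plus strand: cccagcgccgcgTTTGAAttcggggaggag
PLK4 CRE core, chr4:127880876-127880905, plus strand: atccatctcgttACGTCAccaccagcctag
PLK4 CHR word, chr4:127880913-127880942, plus strand: ggcaagcggcgggagattTTCAAAatggga
A match says nothing of whether a factor was bound there in these cells.

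The nearest tested protein-coding genes on either side of each member were examined for comparison, and PLK2 lies far from its own. RAB3C, a GTPase of synaptic vesicles that lies 121961 bases away, rose by 0.36 on the log2 scale (SE 0.0642, edgeR adjusted p 5.6e-05), and GPBP1, 1189303 bases away on the other side, rose by 0.12 (SE 0.0456, adjusted p 0.0375). DCTN5, a dynactin subunit whose annotated end lies 201 bases before PLK1, fell (log2 fold change -0.48, SE 0.0490, adjusted p 3.6e-08). HSPA4L, a heat shock protein gene 40128 bases from PLK4, rose on the log2 scale by 0.75 (SE 0.0828, adjusted p 1.1e-07), and MFSD8 on its other side was not called at -0.10 (adjusted p 0.405). Beside PLK3, BTBD19 was not called at -0.67 (SE 0.442, adjusted p 0.214).

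Genes around the family were examined next, in 6 lists written from general knowledge. They cover its partners and substrates, and the stress and serum responses to which PLK2 and PLK3 belong. Over all genes tested, the 52.5% called at an edgeR adjusted p under 0.05 were 4438 higher and 4123 lower genes, and with upper quartile scaling the split was 3550 higher and 4961 lower. The median over all tested genes was -0.0010 on the log2 scale. No list had a median as far from 0 as 0.1.

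Of the 18 genes that activate PLK1 or act with it at mitotic entry, all were tested; 6 rose and 6 fell, 66.7% called in all, with a median log2 fold change of 0.06. The largest rises were those of CLSPN, CDC25A and MYBL2. CLSPN, which encodes a checkpoint adaptor that PLK1 marks for decay, rose by 0.89 on the log2 scale (SE 0.0535, edgeR adjusted p 8.0e-12). CDC25A, a phosphatase that activates cyclin-dependent kinases, rose by 0.57, and MYBL2, a transcription factor of G2 and mitotic genes, by 0.54. The largest falls were in CDC25C, the phosphatase that activates CDK1 (-0.43, SE 0.0764, adjusted p 5.9e-05), in CCNB2 (-0.27) and in CDK1 itself (-0.18). CCNB1, which encodes cyclin B1, had a log2 fold change of -0.16 (adjusted p 0.0032). AURKA, the kinase that activates PLK1, and BORA, its cofactor, were not called at 0.09 (adjusted p 0.134) and 0.06 (adjusted p 0.604). FOXM1, which encodes a transcription factor for PLK1 and its partners, was called at 0.11 (adjusted p 0.0297), a call lost in 7 of 11 alternatives, among them leaving out shNC library 2 or either shMETTL14 library. BORA, CDC25C and FOXM1 overlap other coding genes.

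Of the 25 docking partners and substrates of PLK1 in mitosis, 5 rose, 11 fell and 9 were not called, so that 64.0% were called, with a median log2 fold change of -0.08. STAG2, a cohesin subunit, fell most, its log2 fold change being -0.70 (SE 0.0404, edgeR adjusted p 4.3e-12). KIF20A, a kinesin of the central spindle, had a log2 fold change of -0.45, and CEP55, a scaffold of abscission, one of -0.37. FBXO5, which encodes the inhibitor EMI1 of the anaphase-promoting complex, rose by 0.47 (SE 0.0522, adjusted p 1.1e-07). NUDC, a dynein-associated protein, rose by 0.45, and HAUS8, an augmin subunit, by 0.38. Of the proteins that dock PLK1 at kinetochores, BUB1 was called at -0.14 (adjusted p 0.0080) and CENPU was not at 0.07 (adjusted p 0.198). The call of BUB1 was lost without shMETTL14 library 2 and with DESeq2, and STAG2, KIF20A, NUDC and CENPU overlap other coding genes.

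Among the 31 genes of centriole assembly around PLK4, 10 rose and 8 fell, 58.1% in all, with a median log2 fold change of 0.01; with upper quartile scaling 10 rose and 12 fell. Of the scaffolds that recruit PLK4, CEP152 fell, with 2372 and 2325 counts under shNC and 1495 and 1424 under shMETTL14 (log2 fold change -0.68, SE 0.0468, edgeR adjusted p 8.1e-11). The other scaffold, CEP192, was not called at -0.07 (adjusted p 0.398). STIL, the activator and substrate of PLK4, rose by 0.21 (SE 0.0535, adjusted p 0.0019), while SASS6, the cartwheel protein that it binds, was not called at -0.12 (adjusted p 0.16). BTRC, an F-box protein that directs the decay of PLK4, was called at -0.21 (adjusted p 0.0209), a call that 5 of the 11 alternatives lost, among them leaving out shNC library 2 or either shMETTL14 library. Outside this core, WDR62, a centrosomal protein, rose by 0.81, SPICE1, an elongation factor of centrioles, by 0.75 on 36 and 27 counts against 48 and 57, and CETN2, centrin 2, by 0.51. CEP44, a protein of the proximal centriole, fell to 5708 and 5973 counts, against 10671 and 10571 in the controls (log2 fold change -0.85), and TUBE1, epsilon-tubulin, had one of -0.45. The call of SPICE1 was lost without shNC library 2, without shMETTL14 library 2 and with DESeq2. CEP44, TUBE1 and SPICE1 overlap other coding genes, SPICE1 on the same strand, so that what part of its reads was counted is not known.

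The substrates and partners of PLK2 that could be tested had log2 fold changes between -0.45 and 0.82, against 3.05 for PLK2 itself. Of 13 genes 10 could be tested, of which 2 rose and 3 fell, 50% of those tested, with a median log2 fold change of -0.06; with upper quartile scaling 2 rose and 5 fell. SNCB, beta-synuclein, was low, with 19 and 18 counts against 34 and 31, and was not called at 0.82 (SE 0.353, edgeR adjusted p 0.0567). SIPA1L1, the Rap regulator SPAR of dendritic spines, had between 990 and 1152 counts per library and was not called at -0.09 (adjusted p 0.211). RAPGEF2, a Rap exchange factor, fell (log2 fold change -0.45, SE 0.0510, adjusted p 1.5e-07). FBXW7 and HSF1 each rose by 0.33. NPM1 and TSC1 had log2 fold changes of -0.16 and -0.14, of which that of TSC1 was called in the full set (adjusted p 0.0490) but not when any 1 library was left out. CIB1, a calcium-binding inhibitor of PLK2 and PLK3, was not called at 0.22 (adjusted p 0.0537) but was called without shNC library 2 or without shMETTL14 library 1. HSF1, TSC1 and CIB1 overlap other coding genes.

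PLK2 and PLK3 also belong to the genes that respond to DNA damage and other stress. Of 20 genes of this response 4 rose and 8 fell, 60.0% in all, with a median log2 fold change of -0.07. CDKN1A, which encodes the CDK inhibitor p21, fell, with 119 and 85 counts under shNC and 55 and 56 under shMETTL14 (log2 fold change -0.87, SE 0.208, edgeR adjusted p 0.0014). CCNG1, cyclin G1, had a log2 fold change of -0.74 and FDXR, ferredoxin reductase, one of -0.70. TIGAR, a regulator of glycolysis, rose, with 23 and 26 counts under shNC and 92 and 71 under shMETTL14 (log2 fold change 1.74, SE 0.266, adjusted p 1.0e-05). AEN, a nuclease, rose by 1.15 and BAX, a pro-apoptotic gene, by 0.36. MDM2, a ubiquitin ligase, was not called at -0.06 (adjusted p 0.326). MDM2 and TIGAR overlap other coding genes. The overlap of TIGAR is on the same strand, and what part of its reads was counted is not known.

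Of 26 genes induced by serum and growth factors, the class in which PLK2 and PLK3 were found, 24 could be tested; 10 rose and 10 fell, 83.3% in all, with a median log2 fold change of -0.02. IER3, an immediate early gene, rose to 1255 and 1253 counts, against 415 and 398 in the controls (log2 fold change 1.63, SE 0.0686, edgeR adjusted p 2.3e-14). FOSL1, an AP-1 subunit, rose by 1.39 and CCN1, a matricellular protein, by 1.16. FOS, another AP-1 subunit, fell to 4520 and 4457 counts, against 8164 and 7844 (log2 fold change -0.83, SE 0.0386, adjusted p 1.4e-13). EGR2 had a log2 fold change of -0.67 and KLF10 one of -0.56. SRF, the serum response factor, rose by 0.27 (adjusted p 0.0019), and its target EGR1 fell, with a log2 fold change of -0.23 (adjusted p 3.0e-05). The list thus held called genes on either side, and the log2 fold change of PLK2, 3.05, lay above that of every tested gene in these 6 lists. The family was chosen by this fold change, so that rank is no separate result.

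**Figure D4:**
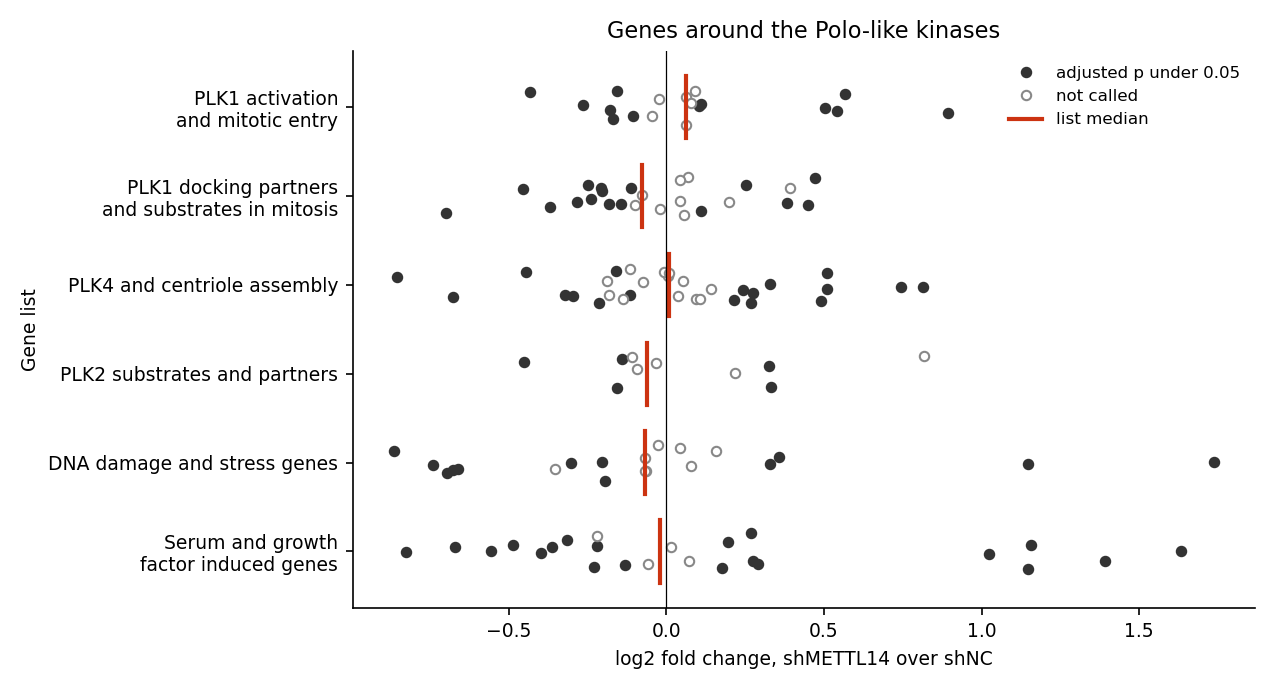
Log2 fold change (x axis) of each tested gene in the 6 lists of genes around the Polo-like kinases (y axis, with vertical scatter for legibility). Filled points had an edgeR adjusted p under 0.05, open points did not, and red bars are list medians, all between -0.08 and 0.06, with called genes on both sides of 0 in every list.

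The genes whose pattern was most like that of each member were found by the Euclidean distance between log2 CPM profiles over the 4 libraries, centred per gene, among 11363 genes. With 2 groups and 4 libraries, this mostly ranks genes by the closeness of their fold changes. Few genes came near PLK2. NPY, a neuropeptide, lay at a distance of 0.159 with a log2 fold change of 3.03, followed by GREM1, an antagonist of bone morphogenetic proteins (0.204), TENT5A (0.278), APLNR, the apelin receptor (0.292), and SGK1, a serum- and glucocorticoid-induced kinase (0.417, with a log2 fold change of 2.71). Within a distance of 0.2 there was 1 gene for PLK2, against 1973 for PLK1 and 2458 for PLK4. These counts follow from the fold changes by which the family was chosen and are no separate result. Of the 16309 genes tested, 23 lay above PLK2 in log2 fold change, so few could be near it. The nearest to PLK1 were BLTP3A, ZNF37BP, AGBL5, CCDC6 and MPDZ, and those nearest to PLK4 were RNPS1, BCAP31, POLE3, DPM2 and RHEBL1, all within a distance of 0.0174.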

How the data were processed

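For the 4 libraries the authors deposited raw counts, 1 whole number per Ensembl gene ID and library, not normalized. Per the labels, the submitters' processing notes name HISAT2 2.1.0, StringTie 1.3.6, HTSeq 0.13.5 and edgeR with GRCh38 and hg38; their order, the strand setting and the release of the annotation are not given in the sources used here. The lines that name no gene held 19.1% to 19.9% of counts and were left out. Genes passing filterByExpr (minimum count 10, minimum total 15) were tested with the quasi-likelihood F-test of edgeR 4.0.16 in R 4.3.3. TMM scaling was used, with group as the only term and Benjamini-Hochberg adjustment over 16309 genes. The procedure was run on simulated data with far fewer changed genes than were called here, which cannot vouch for these calls. Standard errors of fold changes were derived from the F statistic, and those of ratios from the spread between replicates. With 2 libraries in each group the smallest two-sided p of an exact permutation test is 0.333. Calls therefore rest on the variance shared across genes, and p-values measure only the spread between these libraries, which may be technical. Lengths, positions and overlaps came from GENCODE 29, which need not be the authors' release. The members and lists were chosen with earlier results of these data known. Genes that could be named were the members, PLK5, METTL14, a set of key partners, the 3 largest called changes per direction in each list (mean log2 CPM of at least 1, groups not overlapping), the 5 nearest in pattern (mean log2 CPM of at least 2) and genes picked by position. Alternatives were RLE, upper quartile and library size scaling, 2 other filters, DESeq2 1.42.0, a replicate block and leaving out each library. Some genes of the lists and markers are not reported here.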

Additional observations from a re-analysis of the deposited data

How the results depend on the processing

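The direction of PLK1, PLK2 and PLK4 was kept under all 11 alternatives. Upper quartile scaling moved them by more than the spread between replicates, to log2 fold changes of -0.38 for PLK1, 2.99 for PLK2 and 0.28 for PLK4, and library size alone did so for PLK1 (-0.36) and PLK4 (0.30). Leaving out 1 library at a time gave -0.34 to -0.28 for PLK1, 2.9998 to 3.11 for PLK2 and 0.31 to 0.40 for PLK4. PLK3 ran from -0.0167 to 0.208 in these fits and reversed without shMETTL14 replicate 1, so it has no settled direction. In them the lone library of a group is assumed to vary like the others. The PLK2 to PLK1 and PLK2 to PLK4 log2 differences stayed between 3.34 and 3.39 and between 2.65 and 2.77. The count of genes called, 8561, was 6022 with DESeq2, and the 6 lists kept counts within 1.5 times of the reported ones. Of the 52 list genes named here, 5 lost and 5 gained a call in some alternative. These were picked in part for large changes and do not stand for the whole lists. DESeq2 called fewer genes in each of the 6 lists, such as 9 instead of 12 at mitotic entry, 12 instead of 16 among docking partners and 14 instead of 18 in centriole assembly. BORA changed sign with upper quartile scaling, which also called MDM2, SASS6 and SIPA1L1. SNCB was called when 10 counts were asked of every library. The replicate numbers shared only a number, since deviations of same-numbered libraries had a Pearson correlation of -0.0018 across genes; with the replicate block 8926 genes were called, CIB1 among them, and PLK2 was at 3.05, PLK1 at -0.31 and PLK4 at 0.35. At this depth a gene at or below 3 counts, such as PLK5, gives no fold change.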
